A study of Homo sapiens with 4 samples.

Results

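The genes described here are those of the Th9 programme: the cytokine gene IL9, its receptor gene IL9R, and the transcription factor genes IRF4, IRF1, BATF, SPI1 and ETV5. Members are these 7 genes, and every probe set to which the array annotation gives one of them as its single gene symbol was taken. This gave 15 of the 54675 probe sets on the array, naming 6 of the 7 genes, out of 19775 genes named on it. No probe set was named IL9 in the annotation table used here, which does not list every probe set of the array, so the cytokine's own transcript was not analysed here. IL9R had 3 probe sets, IRF4 3, IRF1 2, BATF 1, SPI1 1 and ETV5 5. The rule uses no measured value, although the members were chosen with earlier results of these data known.

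Total RNA was measured on 4 biotin-labelled arrays, with 1 array for each of 4 cultures of 2 human cutaneous T cell lymphoma lines. The cultures were MyLa with 5 ng/ml of IL-32γ, MyLa without it (control), HH with 5 ng/ml of IL-32γ and HH without it (control), and all were kept for 40 hours in 0.1% serum. MyLa is labelled as a mycosis fungoides line and HH as a cutaneous T cell lymphoma line, and IL-32γ is an isoform of the cytokine interleukin-32. The title of the series concerns the relation of IL-32 in mycosis fungoides to Th2 and Th9 polarization, which is the question that the Th9 genes bear on. Each line is a single established culture, so nothing here speaks for the spread between patients or between cultures of a line.

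Th9 cells are helper T cells that make interleukin-9 after IL-4 and TGF-β signalling. In mice, STAT6 downstream of IL-4 induces IRF4, BATF binds DNA together with JUN proteins and IRF4, and PU.1 (encoded by SPI1) and ETV5, both ETS family factors, act on the Il9 locus. IL-9 signals through IL9R paired with the common gamma chain, which activates JAK1 and JAK3 and then STAT3 and STAT5. IRF1 is an interferon-induced factor that activates genes of antigen presentation.

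Promoter sequences of 5 of the 7 members were matched in the RefSeq table (assembly GRCh38.p14), and 3 are shown because they are the cytokine gene on which the factors act, its receptor gene, and the factor gene whose window held a STAT motif. Each run is the 250 bases before the annotated start, 5′ to 3′ on the gene's own strand. Capitals mark matches on either strand to TGANTCA, a motif of AP-1 factors including BATF with JUN, or to TTCNNNGAA, a motif of STAT factors.
IL9 (chr5:135895842-135896091, minus strand): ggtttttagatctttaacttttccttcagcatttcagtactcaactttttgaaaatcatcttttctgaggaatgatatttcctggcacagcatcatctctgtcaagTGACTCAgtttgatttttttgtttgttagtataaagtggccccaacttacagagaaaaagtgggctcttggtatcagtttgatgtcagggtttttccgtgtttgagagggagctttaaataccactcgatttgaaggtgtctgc
IL9R (chrX:155997446-155997695, plus strand): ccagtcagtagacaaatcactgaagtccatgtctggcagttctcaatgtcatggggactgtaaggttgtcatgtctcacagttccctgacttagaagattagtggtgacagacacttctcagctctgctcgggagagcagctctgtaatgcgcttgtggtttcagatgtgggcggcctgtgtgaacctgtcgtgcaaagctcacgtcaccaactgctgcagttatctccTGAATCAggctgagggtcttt
IRF1 (chr5:132490774-132491023, minus strand): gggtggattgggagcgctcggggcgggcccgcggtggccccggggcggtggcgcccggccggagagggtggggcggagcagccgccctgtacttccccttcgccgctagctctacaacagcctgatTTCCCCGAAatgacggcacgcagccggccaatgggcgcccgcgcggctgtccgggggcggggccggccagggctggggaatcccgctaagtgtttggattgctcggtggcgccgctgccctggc

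The IL9 window held TGACTCA, 144 bases before the start, and the IL9R window held TGAATCA, 21 bases before it. The IRF1 window held TTCCCCGAA, 124 bases before the start. Of 35116 promoters of the same length, 6.57% held TGANTCA and 6.57% held TTCNNNGAA. No match to either was found in the windows of IRF4 or BATF. GAAANNGAAA, an IRF motif found in 3.02% of promoters, and GGAANNGAAA, a motif of PU.1 with an IRF found in 2.41%, were in none of the 5 windows; GGAANNGAAA and the ETS core can overlap. The ETS core GGAA lay in all 5 windows, as in 92.7% of promoters. These are matches of letters and not sites of binding.

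Each probe set has a log2 expression value, which the authors obtained with GCRMA, a procedure that corrects background by probe sequence, normalizes and summarizes the probes. A value of 5 or more was taken as measured. From 23433 to 23686 probe sets (42.9% to 43.3%) were measured per array, and the number of arrays limits the precision. Of 14 T cell marker genes with a probe set, 7 were measured on each MyLa array and 9 on each HH array. MyLa lacked a measured level of CD3E, CD4 and CD5 and had CD8A at 11.08 with IL-32γ and 11.05 without, while HH had CD4 at 12.84 with IL-32γ and 13.04 without and lacked CD8A. Of 9 myeloid marker genes 1 was measured in MyLa (ITGAM) and 0 in HH, and of 3 erythroid ones 0 in either line. Of 6 fibroblast markers MyLa had COL3A1 at 13.16 with and without IL-32γ and COL1A1 at 10.82 with IL-32γ and 11.30 without, and HH had COL1A1 at 5.66 with IL-32γ alone. Of 5 mast cell markers FCER1A was measured, in MyLa alone, at 7.51 with IL-32γ and 7.91 without. Of 7 B cell markers BLK was measured, at 6.57 with IL-32γ in MyLa (below 5 without) and at 11.14 with IL-32γ and 11.16 without in HH. The part of such transcripts in the results was not tested. The 5′ control probe set for ACTB was higher on the IL-32γ arrays, by 1.69 in MyLa and 0.89 in HH, while the 3′ one differed by -0.075 and -0.027. The 5′ one for GAPDH was higher by 0.68 in MyLa and 0.15 in HH. The lines differed too. The 5′ ACTB probe set read 11.81 with IL-32γ and 10.12 without in MyLa, and 13.58 with IL-32γ and 12.69 without in HH. The 3′ one read from 15.07 to 15.27. Whether this touches the differences below, with IL-32γ or between the lines, was not tested.

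Of the 15 probe sets, 8 were measured on some array and 7 on all 4. They named 5 genes, and the other 7 probe sets, among them the only one of SPI1, stayed below 5 on every array. SPI1 read 2.13 on all 4 arrays, the lowest value that occurs on any of them. The unmeasured probe sets of IL9R lay between 2.13 and 3.22, those of ETV5 between 2.13 and 3.19, and the third of IRF4 read 2.13 throughout. Levels of different probe sets cannot be set against each other, so they are compared between arrays only.

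**Figure D1:**
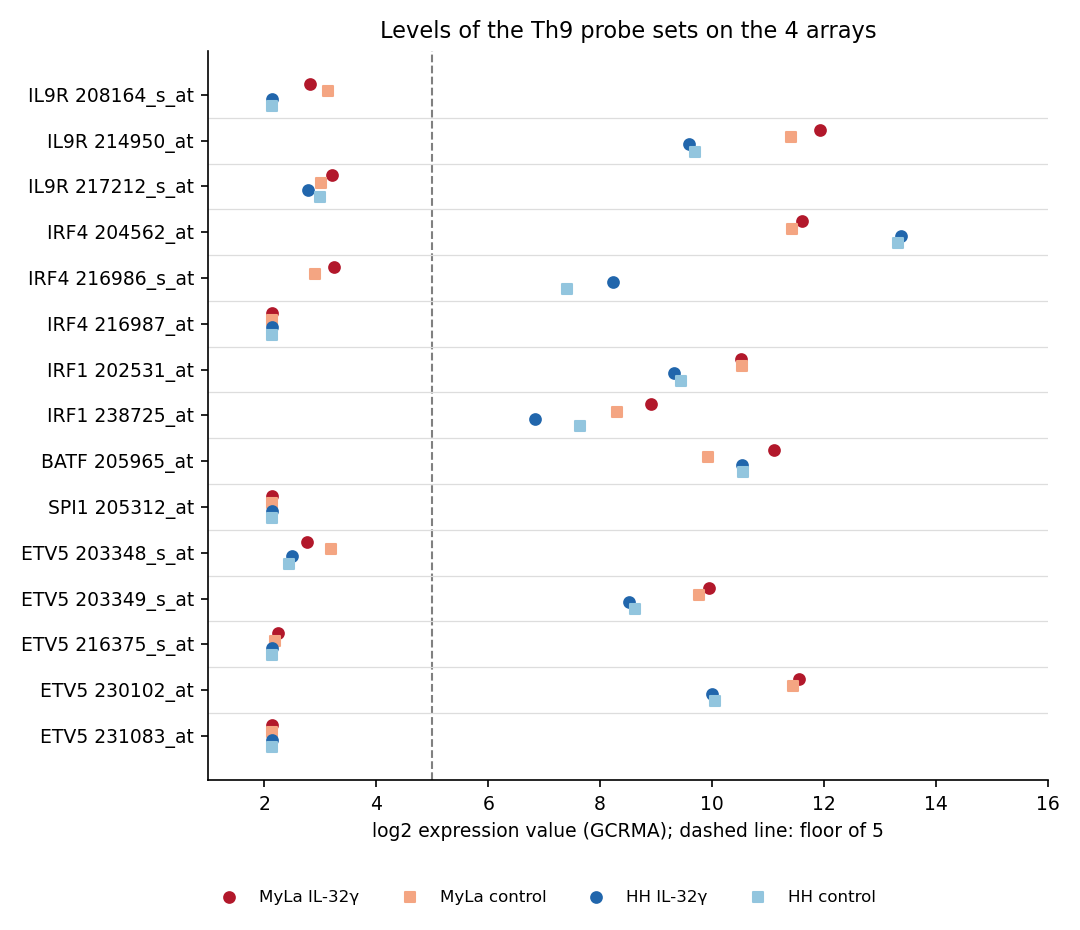
Log2 expression value (horizontal axis) of each of the 15 Th9 probe sets (rows) on the 4 arrays, with 1 point per array and the floor of 5 as a dashed line. IRF4 204562_at and 216986_s_at lie higher in HH, IL9R 214950_at, IRF1 202531_at and both measured ETV5 probe sets lie higher in MyLa, and SPI1 lies at 2.13 on all 4.

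The receptor gene IL9R (chromosome X, 155997696 to 156013020) was measured by 214950_at, which read 11.93 with IL-32γ and 11.41 without in MyLa, and 9.58 with IL-32γ and 9.69 without in HH. Both MyLa arrays lay above both HH arrays. The MyLa mean was 11.67 ± 0.37 and the HH mean 9.63 ± 0.075 (SD, n = 2 arrays each), a log2 difference of 2.04 (SE 0.22), or 4.10-fold, which passed the test between lines (limma, adjusted p = 0.00533). In bulk RNA fewer cells with a transcript and less of it per cell cannot be told apart. With IL-32γ the MyLa value was higher by 0.52 (1.43-fold) than its control, and the HH value differed by -0.11. In MyLa 12.7% of all measured probe sets had as high a difference or a higher one. The RefSeq table lists 6 pseudogenes of IL9R (IL9RP1 to IL9RP6), and whether the probe set reads any of them was not tested. The other 2 IL9R probe sets were unmeasured.

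IRF4 (chromosome 6, 391752 to 411443), the interferon regulatory factor that pairs with BATF and PU.1, was the member that was lower in MyLa. Probe set 204562_at read 11.61 with IL-32γ and 11.42 without in MyLa, and 13.37 with IL-32γ and 13.32 without in HH. The lines did not overlap, with means of 11.52 ± 0.13 in MyLa and 13.35 ± 0.032 in HH (SD, n = 2 arrays each) and a log2 difference of -1.83 (SE 0.12; limma, adjusted p = 0.00179), 3.56-fold lower in MyLa. A further probe set, 216986_s_at, read 3.25 with IL-32γ and 2.90 without in MyLa, below the floor, and 8.22 with IL-32γ and 7.41 without in HH. Against the floor it was at least 7.03-fold lower in MyLa (log2 difference -2.81, SE 0.32; limma, adjusted p = 0.00588). Both measured probe sets thus placed MyLa below HH. They did not give the same IL-32γ difference in HH, where 204562_at stood at 0.046 and 216986_s_at at 0.82 (1.76-fold). In MyLa 204562_at stood at 0.19.

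IRF1 (chromosome 5, 132481609 to 132490773) lies on the same chromosome as IL9 (135892246 to 135895841). Its brighter probe set, 202531_at, read 10.52 with IL-32γ and 10.53 without in MyLa, and 9.32 with IL-32γ and 9.44 without in HH. The level was nearly the same on the arrays of a line and 2.21-fold higher in MyLa (log2 difference 1.14, SE 0.11; limma, adjusted p = 0.00414), with means of 10.52 ± 0.010 in MyLa and 9.38 ± 0.083 in HH (SD, n = 2 arrays each). The dimmer probe set, 238725_at, read 8.91 with IL-32γ and 8.29 without in MyLa, and 6.84 with IL-32γ and 7.64 without in HH. Here the IL-32γ value was above control in MyLa, by 0.62 (1.53-fold), and below it in HH, by -0.80 (1.74-fold lower). Neither difference was seen with 202531_at, which stood at -0.014 in MyLa and -0.12 in HH. The line difference of 238725_at was also positive, at 1.36 (SE 0.39), but did not pass (limma, adjusted p = 0.0534). It was 2.07 between the IL-32γ arrays and 0.65 between the control arrays.

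BATF (chromosome 14, 75522469 to 75546992), the basic leucine zipper factor that binds DNA with JUN proteins and IRF4, had the largest IL-32γ difference of the 8 measured member probe sets. Probe set 205965_at read 11.11 with IL-32γ and 9.93 without in MyLa, and 10.54 with IL-32γ and 10.56 without in HH. The MyLa difference was 1.19 (2.28-fold), and 2.76% of the 24232 probe sets measured in MyLa had as high a difference or a higher one. HH differed by -0.015, a sign that turned under 3 of 6 alternative settings. BATF had 1 probe set, so no further probe set bears on this value. The HH arrays lay between the MyLa arrays: BATF was higher in MyLa by 0.57 between the IL-32γ arrays and lower by -0.63 between the control arrays. Over both conditions the lines averaged 10.52 ± 0.84 in MyLa and 10.55 ± 0.011 in HH (SD, n = 2 arrays each). The log2 difference was -0.027 (SE 0.45, limma, adjusted p = 0.964). The SD in MyLa holds only the difference between its IL-32γ array and its control array.

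ETV5 (chromosome 3, 186046314 to 186109089), the ETS factor that acts at the Il9 locus in mouse Th9 cells, was higher in MyLa by both of its measured probe sets. The values of 230102_at were 11.55 with IL-32γ and 11.44 without in MyLa, and 10.00 with IL-32γ and 10.06 without in HH. Its log2 difference between lines was 1.46 (SE 0.11; limma, adjusted p = 0.00232), or 2.76-fold. The values of 203349_s_at were 9.95 with IL-32γ and 9.78 without in MyLa, and 8.52 with IL-32γ and 8.62 without in HH, a log2 difference of 1.29 (SE 0.13; limma, adjusted p = 0.00413), or 2.45-fold. No array of one line overlapped with the other line in either probe set. With IL-32γ the probe sets stood at 0.10 and 0.18 in MyLa, and at -0.062 and -0.094 in HH.

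Taking the IL-32γ differences of all members, 2 of 7 measured probe sets reached 1.5-fold above control in MyLa (BATF 205965_at and IRF1 238725_at) and 0 reached it below. Over all probe sets measured in MyLa, 11% were higher by as much and 9.13% lower. In HH 1 of 8 was higher (IRF4 216986_s_at) and 1 lower (IRF1 238725_at), where 5.45% of all were higher and 4.02% lower. The median difference was 0.19 over the members in MyLa and -0.078 in HH, against -0.045 and -0.025 over all measured probe sets of those lines. With 1 array per condition these differences have no replicate check, and no test of them within a line was possible. With the 2 lines as replicates, limma with the line as a block called 0 of the 8 member probe sets and 0% of 25306 tested. At an unadjusted p under 0.05 it called 0 members and 2571 probe sets (10.2%). BATF had the lowest p of the 8, at a log2 difference of 0.59 (SE 0.35; limma, adjusted p = 0.602), and was higher with IL-32γ in 1 of 2 lines.

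**Figure D2:**
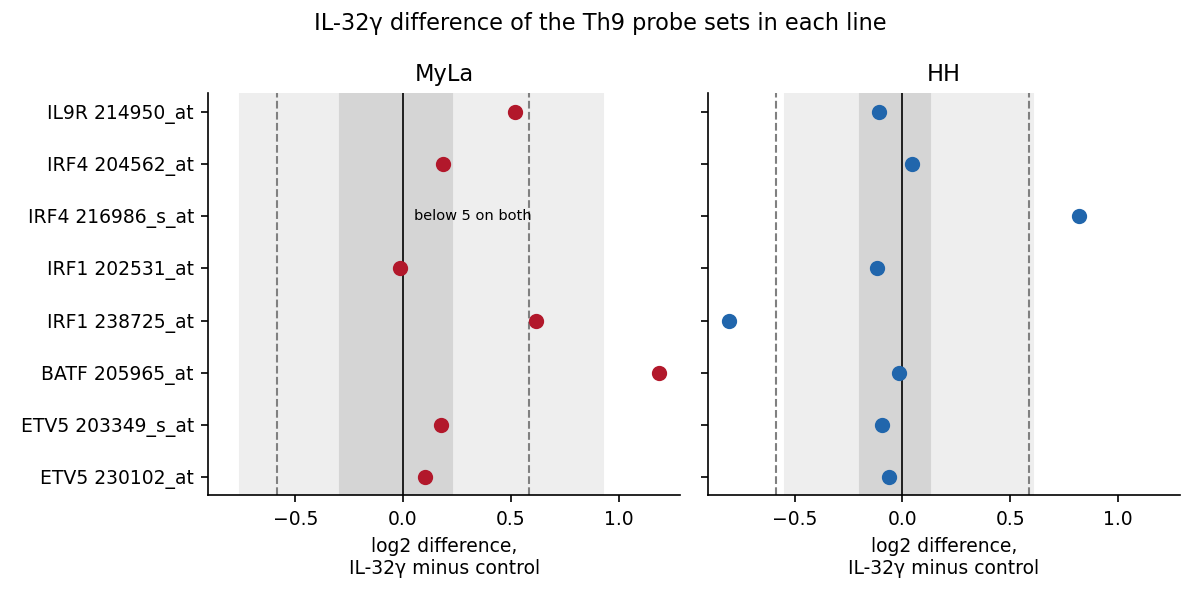
Log2 difference, IL-32γ minus control (horizontal axes), of the Th9 probe sets measured in MyLa (left, 7) and HH (right, 8), 1 point per probe set. The light and dark bands hold the central 90% and 50% of all measured probe sets and dashed lines mark 1.5-fold. BATF at 1.19 in MyLa, and IRF4 216986_s_at at 0.82 and IRF1 238725_at at -0.80 in HH, lie outside the light bands.

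Between the lines, 6 of the 8 probe sets passed an adjusted p of 0.05 with a 2-fold difference: 4 higher in MyLa (IL9R, IRF1 202531_at and 2 of ETV5) and 2 lower (both of IRF4). Over all 25306 probe sets tested, 18.2% were called higher in MyLa and 16.8% lower, so line differences of this kind were common on these arrays. The 2 arrays of a line serve as its replicates although one had IL-32γ, and the labels do not call them separate cultures of a condition, so the spread holds the IL-32γ response and may otherwise be technical. Without the HH IL-32γ array the calls fell to 2, and without the HH control array to 3. Leaving out either MyLa array gave 5.

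**Figure D3:**
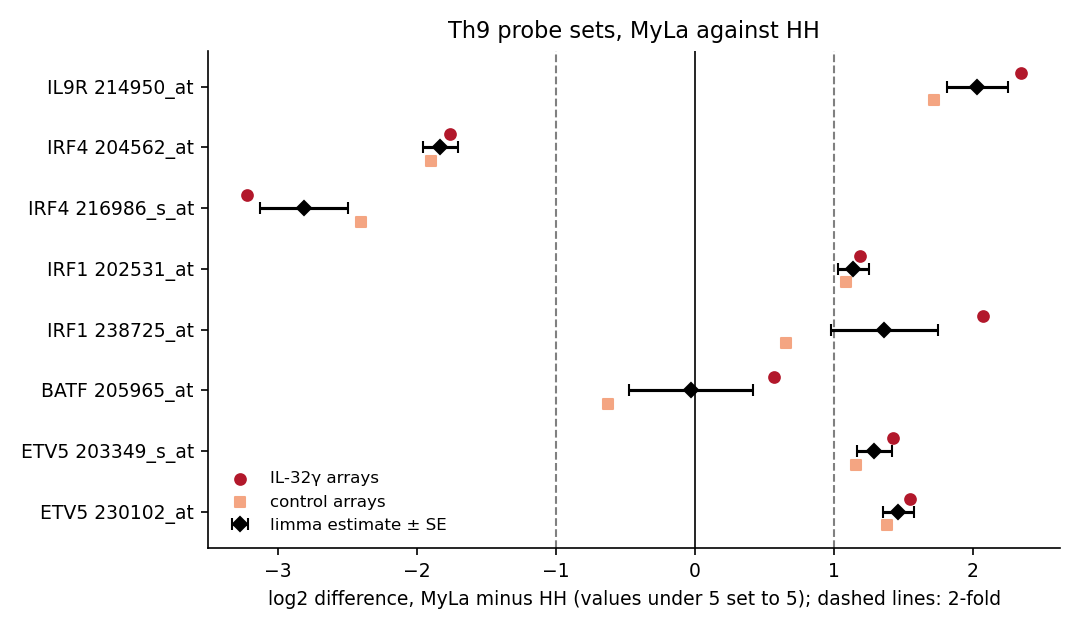
Log2 difference, MyLa minus HH (horizontal axis), of the 8 measured Th9 probe sets, as the limma estimate with its SE over both conditions (diamonds; n = 2 arrays per line) and separately between the IL-32γ arrays and between the control arrays. Both IRF4 probe sets lie on the HH side, and BATF lies on opposite sides of 0 in the 2 conditions.

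Of 131 genes on 10 lists that surround the Th9 programme, 124 had a named probe set, and the brightest stood for the gene. With IL-32γ in MyLa 8 of the 83 measured genes (9.64%) reached 1.5-fold above control and 3 (3.61%) reached it below, where 7.77% and 7.65% of all measured genes were. In HH 1 of 71 (1.41%) was higher and 1 (1.41%) lower, where 1.14% and 4.46% of all genes were. Between lines 36 of 87 (41.4%) were higher in MyLa and 15 (17.2%) lower, against 18.6% and 16.6% of all genes tested. The lists were chosen with earlier results of these data known, so their shares and medians, here and below, are descriptions only.

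The chain with which IL9R pairs and the kinases below it stayed within 2-fold between the lines, whereas the STAT genes and the 4 target genes measured did not. IL2RG, the common gamma chain, averaged 13.59 in MyLa and 13.55 in HH. JAK1 averaged 12.43 in MyLa and 12.91 in HH (log2 difference -0.47; limma, adjusted p = 0.0333) and JAK3 13.48 in MyLa and 12.95 in HH (adjusted p = 0.155). STAT5A was higher in MyLa by 4.10 (SE 0.13; limma, adjusted p = 0.000304), STAT3 by 2.37 and STAT5B by 1.85. Among genes that STAT5 and STAT3 induce, CISH was higher in MyLa by 5.33, PIM1 by 2.50 and SOCS3 by at least 81.2-fold, since it lay below 5 on both HH arrays. MYC was lower in MyLa (-1.26; limma, adjusted p = 0.00720). In all, 6 of the 10 genes were called higher in MyLa and 1 lower, with a median log2 difference of 2.11 against 0.025 over all genes. By the brightest probe sets, with IL-32γ in MyLa JAK3 was higher by 0.60 and PIM1 by 0.82, and the list's median was 0.15. Dimmer probe sets passed 1.5-fold there both ways, at 1.39 for STAT3, -1.31 for JAK1, and 0.72 and -0.84 for STAT5B. By the brightest probe sets none of the list's 9 measured genes passed 1.5-fold in HH, where a dimmer STAT3 probe set stood at 0.74.

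**Figure D4:**
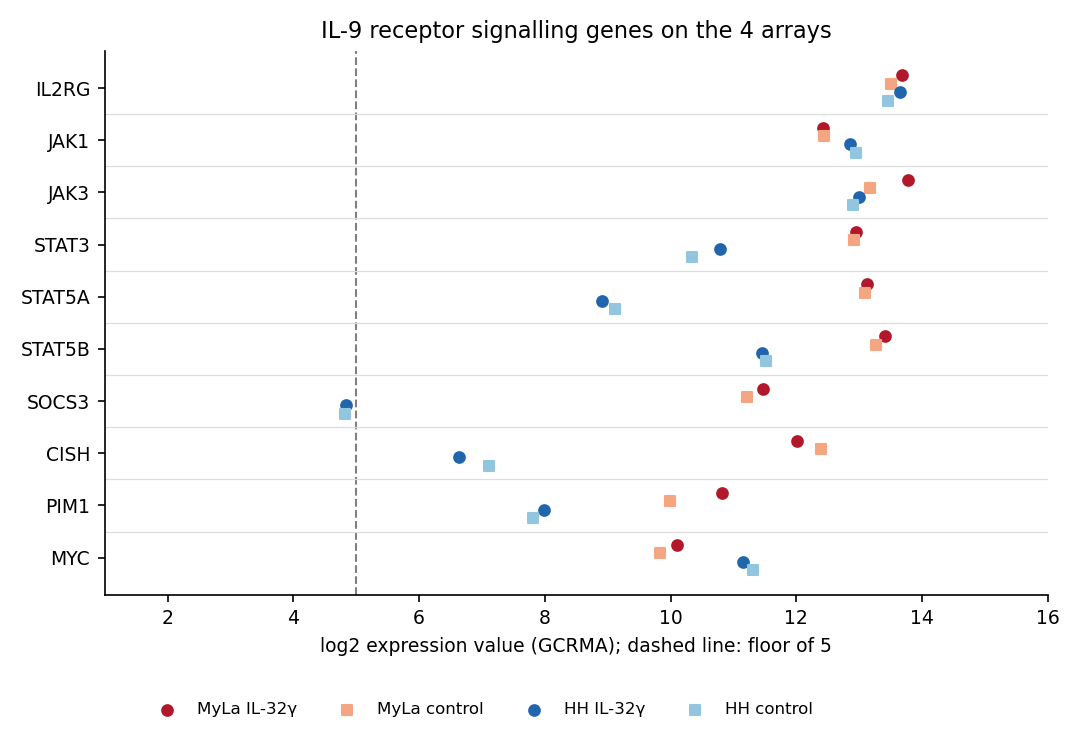
Log2 expression value (horizontal axis) of the brightest probe set of 10 genes of IL-9 receptor signalling (rows) on the 4 arrays, with the floor of 5 as a dashed line. IL2RG, JAK1 and JAK3 lie close together in both lines, STAT3, STAT5A, STAT5B, SOCS3, CISH and PIM1 lie higher in MyLa, and MYC lies lower in MyLa.

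Of the genes that carry the IL-4 and TGF-β signals that induce Th9 cells, 5 of 13 tested were higher in MyLa and 0 lower. They were SMAD3 (log2 difference 5.77), a transducer of TGF-β, its inhibitor SMAD7 (at least 16.2-fold) and the receptor chain TGFBR2 (at least 9.50-fold), both unmeasured in HH, with the Th2 factor GATA3 (1.63) and the IL-4 receptor chain IL4R (1.49; limma, adjusted p = 0.0320). IL4 was below 5 on all arrays. With IL-32γ, TGFB1 was higher in MyLa by 2.46 (8.40 with IL-32γ and 5.94, near the floor, without), and IL4R was lower in HH by -0.78. These are values of the brightest probe sets. Dimmer ones past 1.5-fold stood at -1.31 for JAK1, -0.66 for TGFBR1 and 0.80 for STAT6 in MyLa. In HH they stood at 0.89 for SMAD4 and -0.65 for TGFBR1. Of 9 cytokine genes that Th9 and Th2 cells can share or that lie near IL9, 7 were below 5 on all arrays. IL13 and IL5 were measured in MyLa alone, where IL-32γ differences were 0.76 and 0.55, and were higher there than in HH by at least 42.2-fold and 10.7-fold.

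Among relatives of the member factors, IRF2, a repressor that competes with IRF1, was measured at 11.55 with IL-32γ and 11.35 without in HH and was at least 87.6-fold lower in MyLa (limma, adjusted p = 0.000150). IRF7 was higher in MyLa by 1.03, and IRF8 read 2.13 on all arrays. Neither line had an IRF family gene past 1.5-fold with IL-32γ. In the list of BATF relatives, JUN genes and JUN partners, JUN was higher in MyLa by 2.17 and ATF3 by 2.10. FOSL2 was lower there (-2.32), and JUNB, JUND and BATF3 were not called. BATF3, a close relative of BATF, stood at 0.57 with IL-32γ in MyLa, just under 1.5-fold, and at -0.089 in HH. By the brightest probe sets none of the 6 measured genes of this list passed 1.5-fold in either line. The dimmer of the ATF3 probe sets did, at 1.47 in MyLa and 1.00 in HH.

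Targets of IRF1 were called in both directions between the lines: 5 of 14 tested were higher in MyLa and 3 lower, with a median of -0.11. Higher were the cytokine gene IL15 (at least 98.0-fold, unmeasured in HH), the feedback inhibitor SOCS1 (3.31), the chemokine CXCL10 (2.40), the GTPase GBP1 (at least 2.10-fold) and the peptide transporter TAP1 (1.06). Lower were the MHC class I regulator NLRC5 (-3.90), the MHC class II regulator CIITA (-1.89) and GBP2 (at least 2.38-fold lower). By the brightest probe sets only NLRC5 of these 16 genes passed 1.5-fold with IL-32γ in MyLa (-1.15), and none did in HH. A dimmer probe set of GBP1 stood at -1.26 in MyLa, and one of B2M at 0.62 in HH.

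As for SPI1, 11 of 15 target genes of PU.1 in myeloid and B cells were below 5 on all arrays, among them CSF1R, CD14 and LYZ. NCF4, a subunit of the phagocyte oxidase, was measured on all arrays and was higher in MyLa by 5.69, and the integrin ITGAM was higher there by at least 14.6-fold. CYBB, the catalytic subunit of that oxidase, was higher with IL-32γ by 1.34 in MyLa and 0.74 in HH. Its HH control value was 5.03, close to the floor. By the brightest probe sets CYBB was the single gene of the 10 lists past 1.5-fold the same way in both lines. A dimmer ATF3 probe set also passed it in both, at 1.47 in MyLa and 1.00 in HH. STAT3, ETV6 and TGFBR1 too had a dimmer probe set past it in each line, the same way. FCER1G, a signalling chain of Fc receptors, was lower with IL-32γ in MyLa by -0.59, at 5.16 with IL-32γ and 5.75 without, and was unmeasured in HH. Of 22 other ETS family genes 7, including the nearest relatives of SPI1, SPIB and SPIC, were below 5 on all arrays. FLI1 was at least 212-fold lower in MyLa, ETV1 was likewise unmeasured there (a bound of -3.90 on the log2 difference) and ELF4 was lower by a log2 difference of -2.14, while ETV7 was at least 52.5-fold higher and ETV6 higher by 2.03. ERF, an ETS repressor, was higher with IL-32γ in MyLa by at least 2.35-fold, its control value being below 5. ETV5 is induced by growth factor signalling through ERK in many tissues, and of feedback genes of that pathway with ETV1, 4 of 7 tested were higher in MyLa (DUSP5, DUSP6, SPRY1, SPRED1) and 3 lower (DUSP4, SPRED2, ETV1). With IL-32γ SPRY1, an inhibitor of the pathway, was higher in MyLa by 0.62. By the brightest probe sets it was the single gene of this list past 1.5-fold there, while a dimmer SPRED1 probe set stood at 1.05.

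Genes with the pattern most like each member were ranked by the root mean square distance of their 4 log2 values, set to 5 where below it and then centred, over 5341 genes ranging over 1 or more. For BATF these were GET3 (0.057), VPS72 (0.066) and EEFSEC (0.085). GET3 read 10.50 with IL-32γ and 9.45 without in MyLa, and 10.02 with IL-32γ and 9.96 without in HH. For IL9R they were ZDHHC11 (0.019), ADARB1 (0.035) and LOC105375172 (0.042), the last of these below 5 on both HH arrays, so that its closeness rests on the floor. They were for IRF4 SLC6A6 (0.021), CDC14B (0.026) and COX18 (0.036), for IRF1 BAZ2B (0.014), PDRG1 (0.015) and RPP30 (0.032), and for ETV5 SLC25A26 (0.0061), TMPRSS3 (0.021) and PDZD8 (0.023). With 4 arrays many genes share such a pattern, and the distances are descriptions of these arrays.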

How the data were processed

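The deposited table gives 1 log2 value per probe set and array, made by the authors with GCRMA, per the submitters' processing notes. Neither its version nor a joint normalization of the 4 arrays is stated in the labels, and the log2 scale was read from the values (2.13 to 16.0). Symbols came from the array annotation, updated by Entrez identifier with a RefSeq table (GRCh38.p14). Of the probe sets 41097 had 1 symbol and 1801 several, and the rest were not listed. Values under 5 were set to 5. The 25306 probe sets at 5 or more on at least 2 arrays were fitted with limma 3.58.1 (R 4.3.3), for IL-32γ with the line as a block (1 residual degree of freedom) and for MyLa minus HH without one (2). Tests were two-sided with Benjamini-Hochberg adjustment over all probe sets and a threshold of 0.05, with a 2-fold minimum between lines. The fits were tested on simulated data. A fold against a line below 5 on both arrays is a bound against 5, and the SE and p beside it hold no spread of that line.

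Named were all members, and of each list up to 4 genes past 1.5-fold per line and direction and up to 4 of the largest line differences. A few other list members are given beside these, chosen after their values were seen. The members and lists were chosen with earlier results of these data known. Alternatives were other floors, scalings, thresholds, blocks and gene summaries, and leaving out each array. Tables were handled with Python 3.11.15 and pandas 2.3.3.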

Additional observations from a re-analysis of the deposited data

Results flagged for a closer look

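In 5 member probe sets the IL-32γ value lay above control in MyLa and below it in HH, with 1 pair of arrays per line, so the difference between the lines was not tested. The MyLa difference minus the HH difference was 1.42 for IRF1 238725_at, 1.20 for BATF 205965_at, 0.63 for IL9R 214950_at, 0.27 for ETV5 203349_s_at and 0.17 for ETV5 230102_at. In HH the sign of BATF rests on a difference of -0.015, which turned under 3 of 6 alternatives. Those were all the alternatives with another scaling, and a change of floor could not move it.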

How the results depend on the processing

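No member was called for IL-32γ under any of the 9 alternatives of that test, including the one with no replicate block (0 calls). Between the lines the 6 calls were 6 with IL-32γ as a replicate block, 2 with a 4-fold minimum, and from 2 to 5 when an array was left out. No other alternative moved this count by over 1.5 times. With every array kept, IRF1 238725_at passed with a floor of 6 (adjusted p = 0.0499) and with an intensity trend (adjusted p = 0.0450). IL9R then missed without a floor (adjusted p = 0.0600). IL9R, the brighter IRF4 probe set and the dimmer measured ETV5 probe set also missed when either HH array was left out. The log2 difference of IL9R was 1.98 without the HH IL-32γ array and 2.09 without the HH control array. Such a fit holds no spread within HH, so its differences alone are given. The MyLa difference of BATF ran from 1.18 to 1.21 over 6 alternatives. The changes of floor among them could not move it, and none of them stands in for a replicate array.

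At 2-fold 1 member probe set was higher in MyLa, and in HH 0 were higher and 0 lower. List genes higher in MyLa numbered 17 at the lower fold threshold and 3 at 2-fold, and those lower 12 at the lower fold threshold and 5 without a floor. In HH those higher numbered 2 with a floor of 4, 0 with one of 6, 3 without a floor, 3 at the lower fold threshold, 0 at 2-fold and 2 without probe sets that can match several transcripts. Those lower in HH numbered 3 without a floor, 6 at the lower fold threshold, 0 at 2-fold and 2 without those probe sets. The cause of these shifts was not tested beyond the change of threshold or of genes measured. The labels carry no replicate numbers, so arrays were paired by line or by IL-32γ alone.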

Other observations

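Among 17 tested genes that promote or restrain Th9 differentiation, 8 were called higher in MyLa and 3 lower. The repressor gene BCL6 was higher in MyLa by at least 8.25 (log2) and the repressor gene PRDM1 by at least 6.96, each just above the floor on 1 HH array and set to the floor on the other. The IL-2 receptor chains went opposite ways, with IL2RA at least 230-fold higher in MyLa and IL2RB lower there (-3.46). PPARG, a nuclear receptor gene, was at least 84.2-fold higher in MyLa. NFATC2, the calcium-responsive factor gene, was higher by 2.69 (limma, adjusted p = 0.000551), and NFKB1 lower by -2.45 (adjusted p = 0.000638). By the brightest probe sets, with IL-32γ in MyLa the receptor gene NOTCH1 was higher by 0.90 and NFATC1 lower by -2.02, to 5.07. None of 14 measured genes passed 1.5-fold in HH. Dimmer probe sets of other genes passed it in MyLa, both ways. Higher were those of TNFRSF4 (2.17, its brightest at -0.32), RELA (1.07), PRDM1 (0.87) and BCL6 (0.67). Lower were those of RBPJ (-0.74) and FOXO1 (-0.61), and STAT5B probe sets reached 0.72 and -0.84.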
